A study of Saccharomyces cerevisiae with 12 samples.

Results

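The comparison described here was made between a yeast strain with a rebuilt supply of cytosolic acetyl-CoA and its reference strain, both grown without oxygen. All samples titled as anaerobic cultures of IMZ383 or of CEN.PK113-7D were taken, which gave 6 of the 12 arrays of the series, 3 cultures per strain. The question of the comparison was how transcript levels differ when the native acetyl-CoA synthetases are replaced by a bacterial enzyme that also releases formate. The reference, CEN.PK113-7D, is a MATa laboratory strain of Saccharomyces cerevisiae with the alleles MAL2-8C and SUC2. IMZ383 descends from CEN.PK102-12A, a MATa relative with the same 2 alleles plus ura3-52, leu2-3,112 and his3-Δ1. In it a HIS3 cassette between loxP sites replaced ACS2 and a LEU2 cassette replaced ACS1, and the plasmid pUDE204 carried URA3 with pflB and pflA of Escherichia coli. IMZ383 is 1 strain, so the 2 replaced genes, the marker alleles and the plasmid changed together and their parts cannot be told apart. Both strains grew in glucose-limited chemostats at 0.1 per h, 30 °C and pH 5.0 under nitrogen, on synthetic medium with 20 g/L glucose, 10 mg/L ergosterol and 420 mg/L Tween 80. The other 6 arrays entered the fit, to estimate the spread, and are shown for a few genes: 3 cultures of CEN.PK113-7D and 3 of IMZ305, grown at the same rate with air on 7.5 g/L glucose and without ergosterol or Tween 80. IMZ305 has the same parent as IMZ383; cassettes replaced ALD2 with ALD3 (LEU2), ALD4 (HIS3), ALD5 (KanMX4), ALD6 (hphNT1), ACS2 (natNT2) and ACS1 (AmdS), and the plasmid pUDE151 carried URA3 with eutE of Escherichia coli.

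Acetyl-CoA in the cytosol of yeast is the building block of sterols, fatty acids and acetylated proteins. Yeast makes it from acetaldehyde by oxidation to acetate and activation by the acetyl-CoA synthetases Acs1 and Acs2, which consumes ATP. Pyruvate formate-lyase, encoded by pflB and switched on by the enzyme encoded by pflA, splits pyruvate and CoA into acetyl-CoA and formate with no acetate or ATP needed. Formate is a weak acid; yeast can oxidise it to carbon dioxide with formate dehydrogenase or bind it to tetrahydrofolate, the carrier of one-carbon units for purines, methionine, serine and glycine.

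Transcripts were measured on Affymetrix 3' arrays, and values are the deposited signal intensities, in arbitrary units and given for cultures 1, 2 and 3 in that order. The labels number the cultures of each strain but do not say whether they were started from separate inocula. The p-values therefore measure the spread between cultures of a group, pooled over all 12 arrays, the aerated ones included. A level is compared only within a probe set, the group of probes for 1 transcript. Between 74.1% and 84.9% of the yeast probe sets lay above the highest of 19 non-target controls of their array, which read 2.6 to 7.1. Where arrays of the lower group lay under that limit, the fold is given as "at least". Log2 signals correlated at 0.972 to 0.982 between reference cultures, at 0.968 to 0.980 between IMZ383 cultures and at 0.954 to 0.967 across the strains. The CreX control probe set read 532 in IMZ383 culture 2 and 1419 to 1794.5 on the other anaerobic arrays. What this difference does to the results was not tested. The 3'-to-5' signal ratio of the ACT1 control, a measure of RNA integrity and labelling, was 1.88, 1.90 and 1.67 in the reference and 1.37, 1.41 and 1.47 in IMZ383, so the groups did not overlap. The same ratio overlapped between the strains for both other yeast controls of this kind, at 3.27 to 5.00 in the reference and 2.86 to 4.09 in IMZ383 for one and at 3.11 to 8.00 and 2.44 to 4.66 for the other. The part of this in the results was not tested. All 7 anaerobic markers, among them ANB1 and DAN1, had higher means in both anaerobic groups than in the aerated reference. None was called between the strains, while the mean change of all 7 was below 0. DAN1 read 3692, 3106 and 3365 in the reference and 2117, 1176 and 2723 in IMZ383 and did not overlap (adjusted p = 0.503). Summed over the list, a sum that its brightest probe sets dominate, the markers read 14062 to 16266 in the reference and 10932 to 14317 in IMZ383.

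Of 9275 yeast probe sets, 212 were called at an adjusted p under 0.05 by limma with Benjamini-Hochberg adjustment, 2.29% of those tested. In IMZ383 157 of them were higher (1.69%) and 55 lower (0.593%), and they matched 139 and 48 different genes. A difference of 2-fold or more was reached by 88 of the higher and 40 of the lower probe sets. The 3 reference and 3 IMZ383 signals did not overlap in any called probe set, nor in 20.4% of all probe sets. With 1 probe set per gene, 2.32% of 5656 genes were called higher and 0.796% lower, the shares to set beside the list counts below. The lists were chosen with earlier results of these data known, so a count above these shares is no test. How many calls fell on each side depended on the scaling: 74.1% of calls were higher as deposited, 60.4% (113 higher and 74 lower) after quantile normalization and 54.4% (87 higher and 73 lower) after each array was centred on its median. Centring moved the median of all log2 changes by -0.12, from 0.06 to -0.06, and single changes can be read relative to that shift. Counts of changes above 0 in the lists below are as deposited, where the median over all genes was 0.08. Of the 212 calls, 159 held after quantile normalization, 139 after median centring and 63 in a fit of the 6 anaerobic arrays alone. After removal of each array's smooth trend along the probe set numbers, an alternative chosen after seeing the data and called trend removal here, 140 held. When each of the 6 arrays was left out in turn, 97 held every time. Over these 6 fits and 10 with another scaling, floor, filter, prior, block, weighting or set of arrays, 48 held wherever they were tested, 36 higher and 12 lower. Calls lost in the fit of the 6 anaerobic arrays alone are not marked gene by gene below. Among them were those of TPO2, YRO2, YGP1, HSP12, HXT5, NCA3, ARE2, CYB5, FTR1, HMX1, TIS11, EPL1, BIO4, LAC1 and KAR2. These are all rises, but falls were lost too, as that fit called 19 probe sets lower, beside 55 as reported. The falls of GCV2, INO1 and POT1 each held in 15 of the 16 fits.

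**Figure D1:**
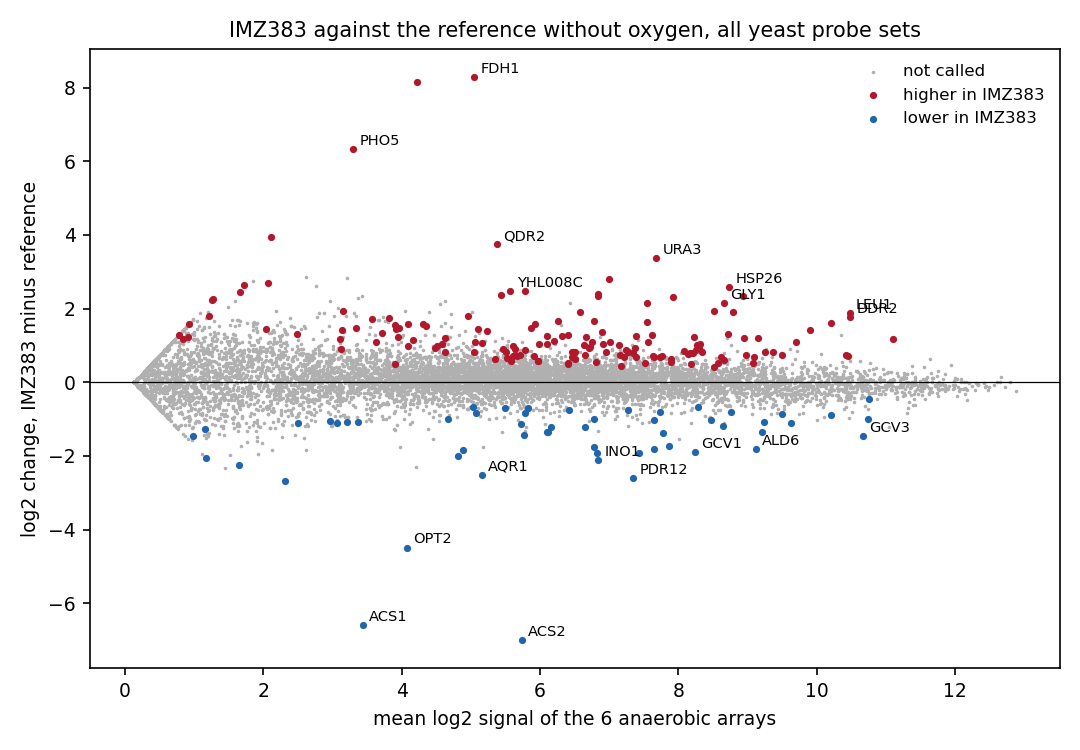
Each point is 1 of 9275 yeast probe sets, with the mean log2 signal of the 6 anaerobic arrays on the horizontal axis and the log2 change, IMZ383 minus reference, on the vertical axis; red and blue points are the 157 higher and 55 lower probe sets called by limma. FDH1 and PHO5 stand highest, and the replaced genes ACS1 and ACS2 and the transporter gene OPT2 lowest.

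The replaced genes checked the labels. ACS2, the synthetase gene used on glucose, read 558, 652 and 591 in the reference and 3.3, 6.1 and 5.2 in IMZ383, and ACS1 read 124, 104 and 94.3 in the reference and 0.5, 0.3 and 0.5 in IMZ383. All 6 values in IMZ383 lay far below all reference values, and no ACS1 and 1 ACS2 signal there was above the non-target controls. ACS2 was at least 99.8-fold lower (adjusted p = 5.69e-07) and ACS1 at least 23.6-fold lower (adjusted p = 9.94e-06). URA3, the orotidine phosphate decarboxylase gene carried by the plasmid, read 55.2, 76.8 and 61.3 in the reference and 735, 627 and 616 in IMZ383, a rise of 10.3-fold (95% interval 8.46 to 12.5). HIS3, the marker at ACS2, read 314, 432 and 443 in the reference and 704, 667 and 589 in IMZ383 and rose 1.66-fold (adjusted p = 0.0415), but this call ended when any 1 of the 6 arrays was left out (adjusted p 0.0617 to 0.121) and also after quantile normalization, median centring or trend removal. LEU2, the marker at ACS1, read 2121, 2192 and 2149.8 in the reference and 1606, 1807 and 1726 in IMZ383, which did not pass (adjusted p = 0.194).

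Among the 3 annotated genes on each side of the replaced loci, 1 was called on its brightest probe set. YLR152C, the gene next to ACS2 on one side and of unknown function, read 62.2, 50.8 and 49.8 in the reference and 122, 133 and 142 in IMZ383 and rose 2.45-fold (95% interval 1.80 to 3.34, adjusted p = 0.00998). RNH203, a subunit gene of ribonuclease H2 on the other side of ACS2, read 146, 186 and 168 in the reference and 110.5, 121 and 114 in IMZ383. Its groups did not overlap, but it missed the threshold (adjusted p = 0.0526). STM1, PCD1, a transfer RNA gene and RDN37-1 completed the neighbours of ACS2, with adjusted p of 0.645 to 0.891 on their brightest probe sets, and CNE1, GPB2, PEX22, FLC2, OAF1 and AIM2 those of ACS1, with adjusted p of 0.724 to 1. RDN37-1, a ribosomal RNA precursor gene, has 7 probe sets, of which another one read 75.4, 61 and 85.6 in the reference and 173, 182 and 123 in IMZ383 and was called higher (2.14-fold, adjusted p = 0.0160). That call ended without IMZ383 culture 1 or 2 or reference culture 2 (adjusted p up to 0.0616).

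The step before the synthetases held 2 calls, both lower. ALD6, the main cytosolic acetaldehyde dehydrogenase, read 891, 1079.8 and 1188 in the reference and 344, 329 and 231 in IMZ383 and fell 3.52-fold (adjusted p = 0.00166). ALD4, its mitochondrial counterpart, read 1181, 1087 and 1208 in the reference and 570.2, 555 and 486 in IMZ383. That fall of 2.16-fold (adjusted p = 0.0394) ended when any 1 of the 6 arrays was left out (adjusted p 0.0846 to 0.124). The remaining aldehyde dehydrogenase genes ALD2, ALD3 and ALD5 had higher means in IMZ383 and did not pass (adjusted p 0.404, 0.194 and 0.151). Of 19 measured genes of the acetyl-CoA route and the pyruvate branch point, 4 fell, the replaced pair and these 2 dehydrogenases, and none rose. The median log2 change of the list was -0.14, beside 0.08 over all genes with 1 probe set each. PDC1, the main pyruvate decarboxylase gene, read 2071, 2539.7 and 2634 in the reference and 2399, 1746 and 2271 in IMZ383 and was not called (adjusted p = 0.733), and the 95% interval of its log2 change was -0.63 to 0.27.

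Formate dehydrogenase gave the largest rise. FDH1, whose NAD-dependent enzyme oxidises formate to carbon dioxide, read 1.0, 1.5 and 4.0 in the reference and 468, 626 and 676 in IMZ383. All 3 reference signals lay under the non-target controls, and with them set to that limit the mean of the IMZ383 cultures was at least 112-fold higher (adjusted p = 8.57e-06). A second probe set for FDH1 read 0.5, 0.6 and 0.4 and 250.3, 329.9 and 381 in the same order, also called (adjusted p = 5.80e-08). The remaining one read at most 5.5 on any array and was not called. The annotation gives these probe sets to FDH1; whether transcripts of its near copy FDH2 also bind them was not tested. SAM3, a permease gene for S-adenosylmethionine next to FDH2, read 75.4, 61.2 and 87.1 in the reference and 194, 177 and 204 in IMZ383 and rose 2.59-fold (adjusted p = 0.0159), and 3 of its 5 probe sets were called higher. The 5 did not all share a sign, with log2 changes from -1.04 to 2.21. The call of the brightest one ended without IMZ383 culture 1 or 3 or reference culture 2 (adjusted p up to 0.0610) and also after trend removal. The calls of the other two also ended after trend removal, and 1 of them after quantile normalization, median centring or without IMZ383 culture 3. A probe set shared by YPL277C, YPL278C and YOR389W, of which YOR389W lies beside FDH1 and the others near FDH2, read 11.2, 9.8 and 15.9 in the reference and 21.5, 28.6 and 30.1 in IMZ383 (adjusted p = 0.0356) and was called higher. That call ended in 4 of the 6 fits without 1 array (adjusted p up to 0.113) and also after quantile normalization, median centring or trend removal. YHL008C, which belongs by sequence to the formate and nitrite transporter family and whose function in yeast is not established, read 21.7, 16.4 and 22.8 in the reference and 94.3, 126 and 119.5 in IMZ383. It rose 5.59-fold (95% interval 4.02 to 7.78, adjusted p = 0.000301).

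Of 19 measured one-carbon genes 2 rose, 4 fell and 13 were not called. FDH1 was one of the rises. GLY1, the threonine aldolase that makes glycine and acetaldehyde from threonine, read 196, 183 and 198 in the reference and 848, 932 and 784 in IMZ383 and rose 4.44-fold (95% interval 3.21 to 6.14, adjusted p = 0.000663). CHA1, of the serine and threonine list, a deaminase that breaks down serine and threonine, read 5.5, 6.5 and 6.3 in the reference and 18.9, 18.5 and 13.6 in IMZ383 and rose at least 2.70-fold (adjusted p = 0.00627), with 1 reference signal under the limit. The 3 genes of the glycine cleavage complex, which releases one-carbon units from glycine in mitochondria, all fell. GCV1 read 615, 581 and 556 in the reference and 137, 171 and 161 in IMZ383, a fall of 3.75-fold (95% interval 3.10 to 4.53, adjusted p = 3.97e-05). GCV2 fell 3.48-fold and GCV3 2.77-fold, and in all 3 genes the groups were separated by a wide gap. SHM2, the cytosolic serine hydroxymethyltransferase, read 721, 989 and 928 in the reference and 429, 412 and 407 in IMZ383 and fell 2.10-fold (adjusted p = 0.00282). MTD1, a cytosolic methylene-tetrahydrofolate dehydrogenase, read 413, 456 and 443 in the reference and 191, 83.2 and 216 in IMZ383. Its groups were apart but its call missed the threshold (adjusted p = 0.0877). ADE3, whose enzyme attaches formate to tetrahydrofolate in the cytosol, read 1746, 1832 and 1927 in the reference and 1697, 1725 and 1389 in IMZ383 (adjusted p = 0.435), and its mitochondrial relative MIS1 read 76.5, 102 and 86.1 in the reference and 100.1, 82.7 and 104 in IMZ383 (adjusted p = 0.846). For the 2 formate-activating genes the 95% intervals of the log2 change were -0.45 to 0.05 and -0.33 to 0.56. The one-carbon list had a median log2 change of 0.00, which was -0.11 after median centring.

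**Figure D2:**
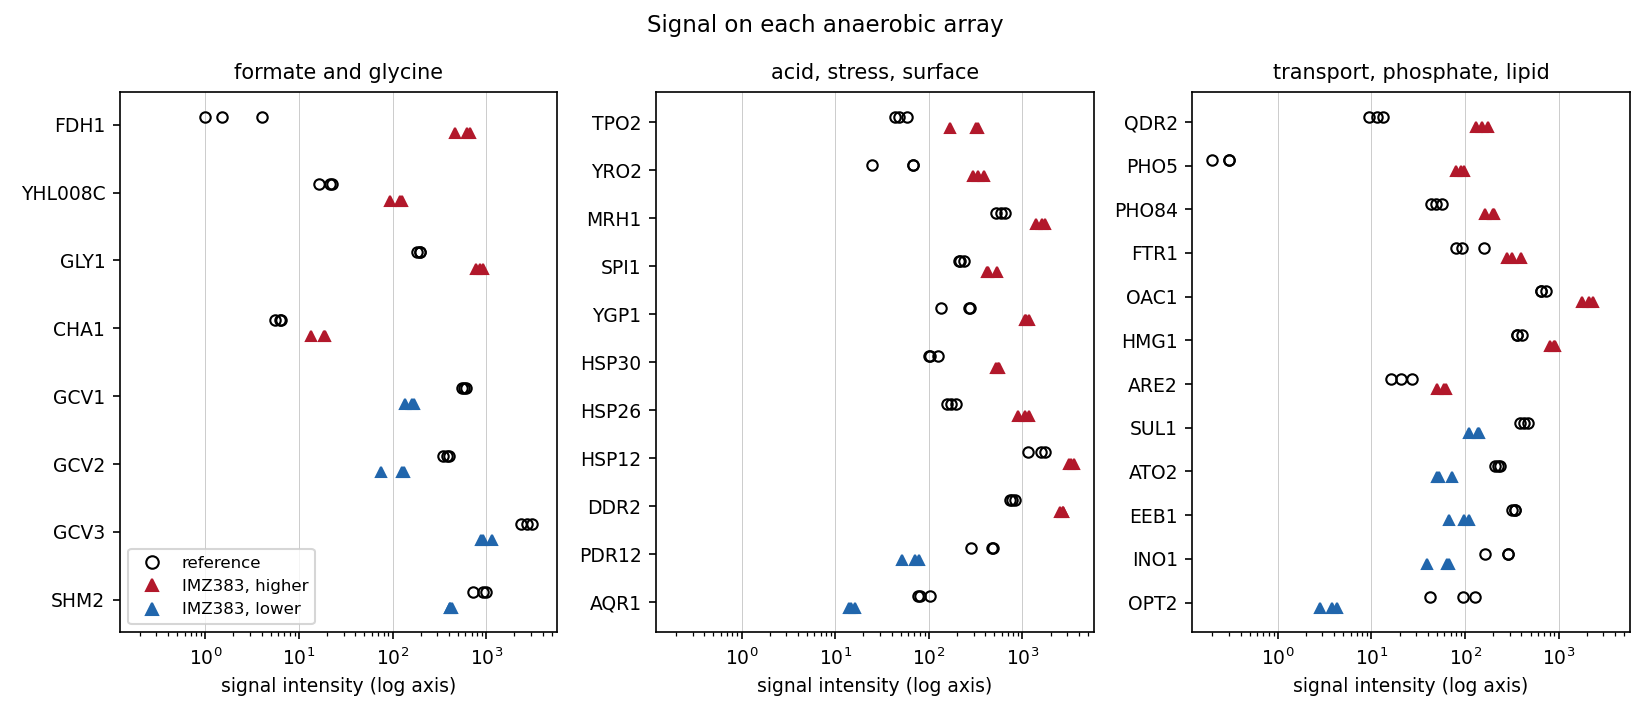
Signal intensity on a log axis for 31 genes, open circles for the 3 reference cultures and triangles for the 3 IMZ383 cultures, red where IMZ383 was higher and blue where lower. In each gene shown the 3 circles and 3 triangles do not overlap; FDH1 and PHO5 in the reference lie under the non-target controls.

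Purine genes, which draw on the same one-carbon carrier, split in direction. Of 24 measured, 3 fell and 1 rose, and 12 changes were above 0. ADE1, the SAICAR synthetase, read 842, 911 and 1128 in the reference and 409.9, 288 and 432 in IMZ383 and fell 2.57-fold (adjusted p = 0.0137). ADE17, 1 of a pair of bifunctional enzymes for the last steps to inosine monophosphate, read 826, 1036 and 1070.4 in the reference and 606, 454 and 568 in IMZ383 and fell 1.80-fold (adjusted p = 0.0137), while its partner ADE16 read 332, 308 and 310.5 in the reference and 427, 430.5 and 407 in IMZ383 and rose 1.33-fold (adjusted p = 0.0202). ADE4, the first enzyme of the pathway, fell 1.60-fold (adjusted p = 0.0166). ADE2 read 863, 899 and 982 in the reference and 519, 525 and 503 in IMZ383 and was not called (adjusted p = 0.200). These calls were near the threshold: that of ADE1 ended without reference culture 3 (adjusted p = 0.0574) and that of ADE17 without reference culture 2 or 3 (adjusted p up to 0.0581). The ADE4 call ended without IMZ383 culture 3 or reference culture 2 or 3 (adjusted p up to 0.0694) and that of ADE16 in 4 of the 6 fits without 1 array (adjusted p up to 0.0824) and also after median centring or trend removal. Without reference culture 3 none of the purine genes was called lower. The list median was 0.02 as deposited and -0.10 after centring.

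Of 20 measured weak-acid genes 7 rose, 2 fell and 11 were not called. Several targets known for the transcription factor Haa1, which adapts yeast to acetic and other small acids, were among the rises. TPO2, a polyamine transporter gene, read 48.2, 58.7 and 43.8 in the reference and 334, 322 and 169.7 in IMZ383 and rose 5.28-fold (adjusted p = 0.00194). YRO2, a plasma membrane protein of the Hsp30 family, read 67.5, 24.5 and 68.2 in the reference and 384, 336 and 295 in IMZ383 and rose 6.96-fold (adjusted p = 0.00424), and its relative MRH1 rose 2.68-fold (adjusted p = 0.00824). SPI1, a wall protein that protects against weak acids, read 238, 209 and 216 in the reference and 428, 421 and 532 in IMZ383 (adjusted p = 0.00460). YGP1, a secreted glycoprotein, read 136, 275 and 269.7 in the reference and 1077, 1169 and 1069 in IMZ383, a rise of 5.11-fold (adjusted p = 0.00115). PHM8, a lysophosphatidate phosphatase also listed with this response, rose at least 3.08-fold from signals of which 1 in the reference was above the limit; its call ended without reference culture 2 (adjusted p = 0.0513). A probe set shared by TPO2 and TPO3 was called higher as well (adjusted p = 0.0165), a call that ended in 4 of the 6 fits without 1 array (adjusted p up to 0.0622). The probe set for TPO3 alone read 8.4, 7.1 and 6.9 in the reference and 3.9, 0.9 and 1.7 in IMZ383 (adjusted p = 0.179). HAA1 itself read 79, 74.5 and 68.4 in the reference and 90.5, 103 and 83.9 in IMZ383 and was not called (adjusted p = 0.509). The 2 falls were PDR12 and AQR1. PDR12, the ABC transporter that pumps carboxylate anions such as sorbate and benzoate out of the cell, read 282, 475 and 485 in the reference and 71, 78.8 and 51.9 in IMZ383 and fell 6.07-fold (95% interval 3.96 to 9.32, adjusted p = 0.00121). AQR1, a transporter linked to short-chain monocarboxylates and amino acid excretion, read 102, 76.5 and 80.5 in the reference and 14, 14.9 and 16.1 in IMZ383 and fell 5.72-fold (95% interval 4.02 to 8.13, adjusted p = 0.000392). WAR1, the activator of PDR12, read 32.2, 50.2 and 37.8 in the reference and 50.1, 49.6 and 60.6 in IMZ383 (adjusted p = 0.340). The list had a median log2 change of 0.46 that was 0.34 after median centring.

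General stress genes were the list with the most calls. Of 27 measured, 10 rose and none fell, and 26 had a change above 0. HSP26, a small chaperone, read 158, 173 and 193 in the reference and 1074, 1164 and 893 in IMZ383 and rose 5.96-fold (95% interval 4.84 to 7.35, adjusted p = 1.14e-05). HSP30, a plasma membrane protein that restrains the proton pump, read 126, 99.2 and 102 in the reference and 549.6, 564 and 518 in IMZ383 and rose 5.02-fold (95% interval 4.00 to 6.29, adjusted p = 3.47e-05). DDR2, a multistress protein, read 729, 842 and 767 in the reference and 2532, 2679 and 2719.7 in IMZ383, a rise of 3.40-fold (95% interval 2.89 to 3.99, adjusted p = 2.10e-05). In these 3 genes every IMZ383 signal lay far above every reference signal. HSP12, a membrane-stabilising protein, read 1145, 1595 and 1728 in the reference and 3266, 3516 and 3163 in IMZ383 and rose 2.26-fold (adjusted p = 0.00447). GRE2, a methylglyoxal reductase, rose 2.09-fold (adjusted p = 0.000539). MSC1, SOL4 and FMP16 rose 1.77-fold, 2.04-fold and 1.89-fold, and each of these 3 calls ended in at least 5 of the 6 fits without 1 array (adjusted p up to 0.0991, 0.102 and 0.131) and after quantile normalization or median centring. HSP31, a glyoxalase of the DJ-1 family, was the member with a change below 0, with 663, 1050.0 and 956 in the reference and 498, 337 and 676 in IMZ383 (adjusted p = 0.164). The stress regulator genes MSN2 and MSN4 were not called (adjusted p 0.25 and 0.387), and the disaggregase gene HSP104 read 236, 189 and 252 in the reference and 270.4, 282 and 227 in IMZ383 (adjusted p = 0.592). The median log2 change over the list was 0.63, and 0.72, 0.68 and 0.64 in IMZ383 cultures 1, 2 and 3 taken singly against the reference mean. After quantile normalization it was 0.50 and after median centring 0.51.

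Lists of related protective genes held 1 or 2 calls each, to be set beside the 2.32% of all genes called higher. An unadjusted p under 0.05 was reached by 12 of 24 folding genes and 9 of 21 trehalose and glycogen genes. It was reached by 9 of 35 proteasome and ubiquitin genes, 4 of 28 defence genes and 1426 of all 9275 probe sets. The 4 list medians were 0.33, 0.24, 0.15 and 0.13 in that order, and 0.21, 0.12, 0.04 and 0.01 after median centring. SSE2 and KAR2, chaperones of the cytosol and the endoplasmic reticulum, were the called members among 24 folding genes. KAR2 read 964, 1089 and 1149 in the reference and 1680.2, 1728 and 1920.4 in IMZ383 and rose 1.67-fold (adjusted p = 0.00649), a call that was lost after median centring or trend removal; that of SSE2 (adjusted p = 0.0263) ended in 5 of the 6 fits without 1 array (adjusted p up to 0.0991) and also after quantile normalization or median centring. TSL1, a regulatory subunit of trehalose synthase, rose 2.41-fold (adjusted p = 0.0181) as the one call among 21 trehalose and glycogen genes, and lost it in 4 of the 6 fits without 1 array (adjusted p up to 0.0770). UBI4, the polyubiquitin gene, read 534, 594 and 565 in the reference and 929, 969.9 and 908 in IMZ383 and rose 1.66-fold, the one call among 35 proteasome and ubiquitin genes, and lost it after median centring or trend removal. NCE102, which organises plasma membrane domains, read 529, 631 and 564 in the reference and 1227, 1158 and 1255 in IMZ383 and rose 2.12-fold (95% interval 1.83 to 2.44, adjusted p = 0.000301). Of 28 genes of defence against peroxide, superoxide and thiol stress, SOD2 and CCP1 rose. The SOD2 call ended when any 1 of the 6 arrays was left out (adjusted p 0.0624 to 0.132) and also after quantile normalization, median centring or trend removal and the CCP1 call in 4 of the 6 fits without 1 array (adjusted p up to 0.0746) and also after quantile normalization, median centring or trend removal.

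Of 20 measured phosphate genes 3 rose, 1 fell and 16 were not called. PHO5, the secreted acid phosphatase that yeast makes when phosphate is short, read 0.3, 0.2 and 0.3 in the reference and 96.5, 90.4 and 79.7 in IMZ383. It was not above the non-target controls on any reference array and rose at least 17.0-fold (adjusted p = 5.68e-10). PHO84, the high-affinity phosphate transporter, read 57.1, 48.6 and 43 in the reference and 202, 161 and 197 in IMZ383 and rose 3.78-fold (95% interval 2.52 to 5.66, adjusted p = 0.00541). PHO89, the sodium-coupled phosphate transporter that is induced with them in phosphate starvation, went the other way, from 50.2, 44.2 and 41.6 to 24.3, 22.4 and 29.6, and fell 1.79-fold (adjusted p = 0.00665). PHO3, the constitutive phosphatase beside PHO5, read 73.4, 56.5 and 47.6 in the reference and 53.8, 49.2 and 35.5 in IMZ383 (adjusted p = 0.564), and the probe set shared by PHO11 and PHO12 read 61.3, 49.2 and 51 and 51.5, 33.2 and 46 (adjusted p = 0.411). PHM8 was the remaining rise, and the median log2 change of the list was -0.01.

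In the aerated reference PHO5 read 0.3, 0.1 and 0.6, and in aerated IMZ305 50.7, 56.0 and 59.2. It was thus under the non-target controls in all 6 reference cultures and detected in all 6 engineered cultures. QDR2, a multidrug exporter gene, read 9.5, 11.4 and 13.4 in the reference and 152, 178 and 130.0 in IMZ383 and rose 13.4-fold (95% interval 8.90 to 20.3, adjusted p = 8.27e-05). Its aerated values were 37.0, 46.0 and 21.1 in the reference and 89.5, 86.8 and 77.6 in IMZ305. QDR1, the neighbouring and closely related exporter, did not share the rise, at 31.6, 26 and 30.8 in the reference and 21, 17.6 and 13.7 in IMZ383 (adjusted p = 0.100). FDH1 differed from both: it read 2303, 1611 and 1924 in the aerated reference, far above all 3 anaerobic reference cultures and above all IMZ383 cultures, and 47.8, 44.9 and 42.1 in aerated IMZ305. The aerated groups also differ from the anaerobic ones in feed and in strain, and no test was made across them here.

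**Figure D3:**
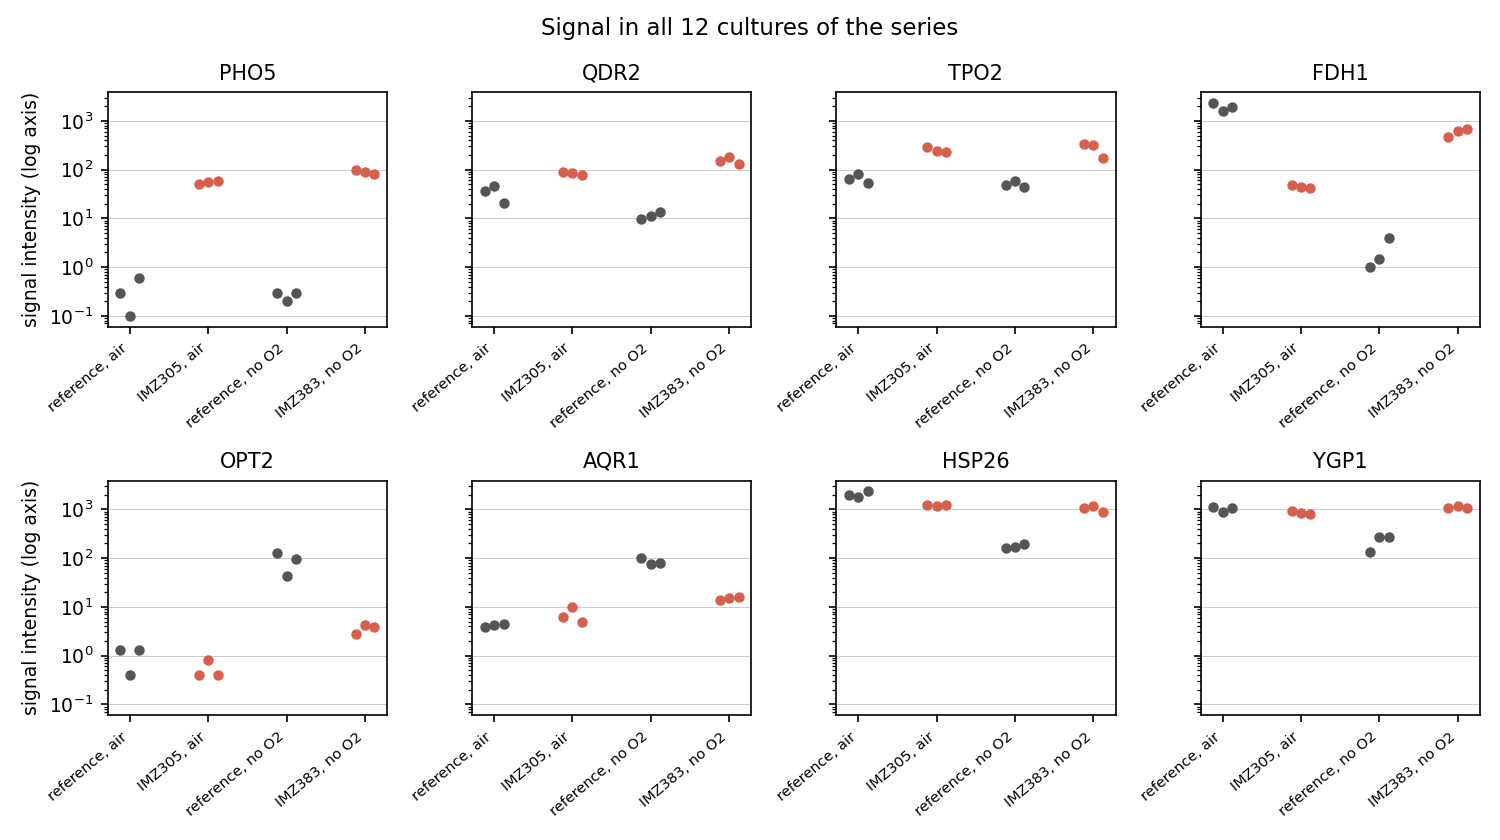
Signal intensity on a log axis of 8 genes in all 12 cultures, grey points for the reference and orange points for the engineered strains, 3 cultures per group. PHO5 lies at 0.6 or less in every reference culture and at 50.7 or more in every engineered culture, while FDH1 is high in the aerated reference and at 4.0 or less in the anaerobic one.

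Membrane transport held the largest fall outside the replaced genes. OPT2, a transporter of the oligopeptide family, read 127, 42.6 and 95.6 in the reference and 2.8, 4.3 and 3.8 in IMZ383 and fell at least 15.0-fold (adjusted p = 0.000129), with 1 IMZ383 signal above the limit. SUL1, a high-affinity sulfate permease, read 464, 428 and 383 in the reference and 109, 139 and 138 in IMZ383 and fell 3.31-fold (95% interval 2.75 to 3.99, adjusted p = 7.43e-05). It was the one fall among 29 sulfate and methionine genes, of which SAM3 was the one rise. Without IMZ383 culture 1 or 3 there were 2 falls and no rise. ATO2, an ammonium and acetate transporter gene, read 209.7, 222 and 234 in the reference and 53.3, 72.5 and 50.7 in IMZ383 and fell 3.82-fold (95% interval 2.65 to 5.50, adjusted p = 0.00308). HXT5, a hexose transporter typical of slow growth, read 32.4, 12.7 and 16.6 in the reference and 111, 106 and 81.2 in IMZ383 and rose 5.18-fold (adjusted p = 0.00671). Among 24 hexose transport and sensing genes SUC2, the invertase gene, was the other call, with 1537, 1774 and 1500.5 in the reference and 716, 1146 and 796 in IMZ383 (adjusted p = 0.0231); it ended in 5 of the 6 fits without 1 array (adjusted p up to 0.0836) and also after trend removal.

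Lipid genes changed at a few steps. HMG1, the HMG-CoA reductase that commits acetyl-CoA to sterols, read 362, 407 and 358 in the reference and 923, 799 and 889 in IMZ383 and rose 2.32-fold (95% interval 1.93 to 2.78, adjusted p = 0.000663). ERG13, the HMG-CoA synthase just before it, read 312, 342 and 329 in the reference and 472, 511 and 523 in IMZ383 and rose 1.53-fold (adjusted p = 0.0124). CYB5, an electron donor for desaturation steps, rose 1.75-fold (adjusted p = 0.0101) and ERG5, the sterol C-22 desaturase, 1.84-fold (adjusted p = 0.0285). The ERG13 call was lost after median centring or trend removal, and that of ERG5 in 5 of the 6 fits without 1 array (adjusted p up to 0.106) and also after quantile normalization, median centring or trend removal. These 4 were the calls among 26 measured sterol synthesis genes, and HMG2, the second reductase, read 332, 332 and 371 in the reference and 314, 394 and 476 in IMZ383 (adjusted p = 0.636). ARE2, which esterifies sterols for storage, read 16.2, 20.8 and 26.8 in the reference and 61.8, 59.8 and 50.5 in IMZ383 and rose 2.74-fold (adjusted p = 0.00424). YEH1, which releases them again, rose 1.65-fold (adjusted p = 0.0181), a call lost without IMZ383 culture 1 or 3 or reference culture 3 (adjusted p up to 0.0644) and also after median centring or trend removal. These 2 were the calls among 14 genes of sterol uptake, esterification and regulation. DET1, a phosphatase named for its part in ergosterol transport, read 87.6, 94.4 and 84.1 in the reference and 395, 423 and 367 in IMZ383 and rose 4.45-fold (95% interval 3.48 to 5.70, adjusted p = 0.000104).

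Phospholipid genes held 1 call among 23, 2 without IMZ383 culture 2, and 9 of the 23 changes were above 0. INO1, the inositol-3-phosphate synthase, read 164, 288 and 286 in the reference and 64.1, 39.4 and 67.3 in IMZ383 and fell 4.30-fold (95% interval 2.79 to 6.63, adjusted p = 0.00513). OPI3, a methyltransferase for phosphatidylcholine, read 536, 522 and 746 in the reference and 334, 193 and 334 in IMZ383, and ITR1, the inositol importer, 1308, 1649.8 and 1444 in the reference and 685, 713 and 768 in IMZ383. Neither passed the threshold (adjusted p 0.0676 and 0.100), though in both the groups did not overlap. In all, 9 of the 23 had an unadjusted p under 0.05, beside 1426 of all 9275 probe sets. Among 19 fatty acid genes the elongase ELO1 and the acyl-CoA synthetase FAA4 rose 1.61-fold and 1.44-fold, calls that ended in at least 5 of the 6 fits without 1 array and after quantile normalization, median centring or trend removal. LAC1, a ceramide synthase, rose 1.95-fold (adjusted p = 0.00513).

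Of 20 measured genes of fatty acid oxidation and peroxisomes 2 fell, POT1 and SPS19, and none rose. POT1, the peroxisomal thiolase that releases acetyl-CoA, read 60.3, 107 and 113 in the reference and 30.7, 37.2 and 32.1 in IMZ383 and fell 2.71-fold (adjusted p = 0.0101). SPS19, an auxiliary enzyme of fatty acid oxidation, fell 1.77-fold (adjusted p = 0.0359), a call that ended in 5 of the 6 fits without 1 array (adjusted p up to 0.105). POX1, the first enzyme of the pathway, read 34.4, 21.6 and 23.2 in the reference and 9.6, 13.1 and 12.9 in IMZ383 (adjusted p = 0.0555). Of 16 genes of ester synthesis and the Ehrlich pathway 2 rose, ARO10 and BAT1, and 2 fell, EEB1 and ADH7. EEB1, which joins acyl-CoA and ethanol to fatty acid ethyl esters, read 318, 344 and 343 in the reference and 96.3, 109.7 and 66.9 in IMZ383 and fell 3.76-fold (95% interval 2.39 to 5.92, adjusted p = 0.00986). Of 9 genes of the carnitine shuttle and monocarboxylate transport YAT2 rose and ATO2 fell. YAT2, a cytosolic carnitine acetyltransferase, read 33.3, 46.9 and 27.4 in the reference and 107, 116 and 92.2 in IMZ383 and rose 3.00-fold (adjusted p = 0.0180). That call ended in 4 of the 6 fits without 1 array (adjusted p up to 0.0713). CRC1, the carnitine carrier of mitochondria, read 10.7, 12.5 and 14.1 in the reference and 21.2, 30.1 and 20 in IMZ383 and missed the threshold (adjusted p = 0.0604).

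**Figure D4:**
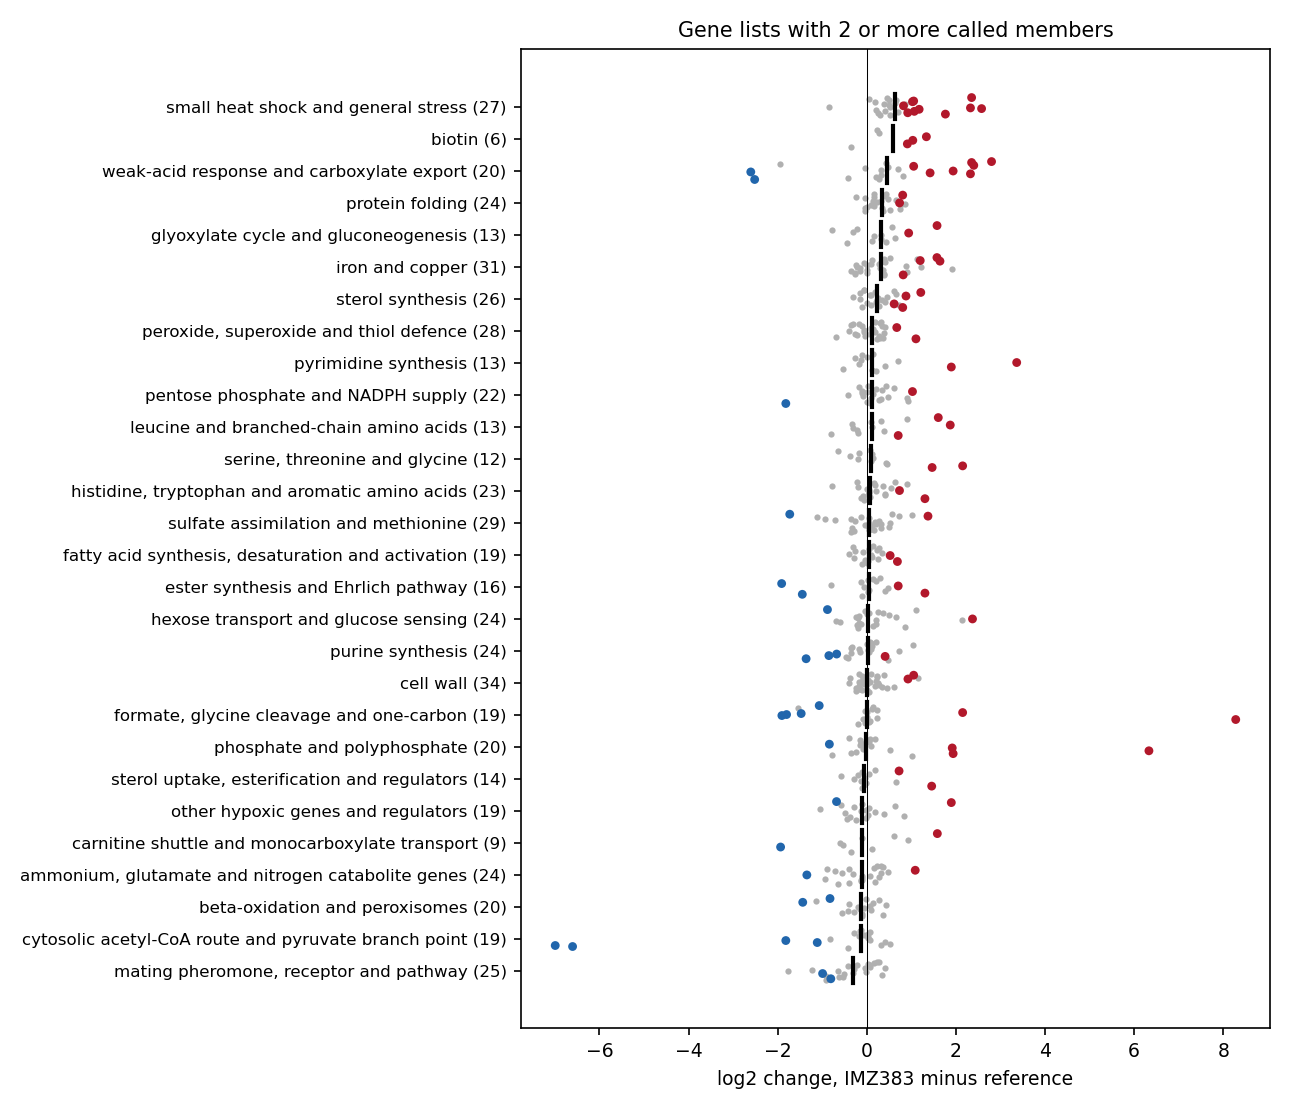
Log2 change, IMZ383 minus reference, of the measured members of 28 gene lists that held 2 or more calls (the replaced loci and markers are left out), with the number of measured members in parentheses. Red and blue points are called members, grey points the others, and the black bar is the list median, which is highest for the general stress genes (0.63) and lowest for the mating genes (-0.30).

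Amino acid and vitamin genes rose at single steps. OAC1, a mitochondrial carrier that moves oxaloacetate and the leucine precursor isopropylmalate, read 644, 733 and 654 in the reference and 1769.7, 2086 and 2349 in IMZ383 and rose 3.04-fold (95% interval 2.51 to 3.69, adjusted p = 0.000140). LEU1, which isomerises that precursor, read 832, 521 and 947 in the reference and 2543, 2938 and 2701 in IMZ383 and rose 3.66-fold (adjusted p = 0.0159), a call that ended without IMZ383 culture 2 or 3 or reference culture 2 (adjusted p up to 0.0567). BAT1, the mitochondrial branched-chain transaminase, rose 1.63-fold (adjusted p = 0.0499) and lost its call in 5 of the 6 fits without 1 array (adjusted p up to 0.139) and also after median centring or trend removal. Its cytosolic paralog BAT2 read 334, 358 and 376 in the reference and 254, 165 and 204 in IMZ383 (adjusted p = 0.0604). OAC1, LEU1 and BAT1 were the calls among 13 branched-chain genes, of which 1 rose without IMZ383 culture 2 or reference culture 2 and 1 was called lower without IMZ383 culture 1. BIO3, BIO4 and BIO5, which sit side by side and serve biotin synthesis and the uptake of its precursors, made up 3 calls among 6 biotin genes. BIO5 read 7.6, 9.0 and 8.2 in the reference and 20.1, 17.8 and 25.3 in IMZ383 and rose 2.53-fold (adjusted p = 0.00853), and BIO4 rose 2.05-fold (adjusted p = 0.00460). BIO3 rose 1.88-fold (adjusted p = 0.0463), a call that ended when any 1 of the 6 arrays was left out (adjusted p 0.0761 to 0.149) and also after quantile normalization, median centring or trend removal. ARO10, a decarboxylase of the Ehrlich pathway, read 3.0, 4.0 and 3.8 in the reference and 9.9, 8.8 and 7.9 in IMZ383 and rose at least 1.70-fold (adjusted p = 0.00776) from signals under the limit. URA1, the dihydroorotate dehydrogenase that works without oxygen, read 204, 252 and 237 in the reference and 924, 816 and 835 in IMZ383 and rose 3.72-fold (95% interval 3.01 to 4.60, adjusted p = 8.75e-05). It was the one call besides URA3 among 13 pyrimidine genes.

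Of 31 measured iron and copper genes 4 rose and none fell, and 7 rose in the fit without reference culture 1. FTR1, the high-affinity iron permease, read 159.7, 92.5 and 79.3 in the reference and 283, 397 and 317 in IMZ383 and rose 3.12-fold (adjusted p = 0.00760). HMX1, a heme oxygenase, read 13.8, 17.8 and 17.5 in the reference and 31.6, 35.2 and 46.8 in IMZ383 (adjusted p = 0.00525) and TIS11, which destabilises mRNAs of iron-using proteins, 17.5, 8.9 and 9.6 in the reference and 43.2, 33 and 27.7 in IMZ383 (adjusted p = 0.0113). AFT2, a transcription factor of the iron regulon, rose 1.76-fold (adjusted p = 0.0398) and lost its call in 5 of the 6 fits without 1 array (adjusted p up to 0.134) and also after quantile normalization, median centring or trend removal. FET3, the oxidase partner of FTR1, read 32.8, 14.7 and 9.7 in the reference and 72.4, 42 and 82.2 in IMZ383 and narrowly missed the threshold (adjusted p = 0.0513). The list median of 0.31 was 0.19 after median centring. Among 24 ammonium, glutamate and nitrogen catabolite genes GDH3, a glutamate dehydrogenase, read 116, 96.9 and 119.9 in the reference and 47, 37.1 and 47 in IMZ383 and fell 2.54-fold (adjusted p = 0.0159). MEP2, an ammonium permease, rose 2.12-fold (adjusted p = 0.0160). The GDH3 call ended without IMZ383 culture 2 or reference culture 3 (adjusted p up to 0.0644) and that of MEP2 without IMZ383 culture 3 or reference culture 2 or 3 (adjusted p up to 0.0683).

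Central carbon metabolism showed few calls, with 2 rises and no fall among 13 measured genes of the glyoxylate cycle and gluconeogenesis. Of those 13, 8 had an unadjusted p under 0.05, beside 1426 of all 9275 probe sets. Their median log2 change was 0.32, or 0.20 after median centring. SIP4, a transcription factor gene of gluconeogenesis, read 8.7, 11.9 and 9.4 in the reference and 32.7, 32.5 and 24.3 in IMZ383 and rose 2.98-fold (adjusted p = 0.00308). MDH2, the cytosolic malate dehydrogenase, read 112, 127 and 121 in the reference and 239.8, 219 and 231 in IMZ383 and rose 1.92-fold (adjusted p = 0.0168), a call lost in 4 of the 6 fits without 1 array (adjusted p up to 0.0620) and also after median centring or trend removal. ICL1 and MLS1, which define the glyoxylate cycle, were not called (adjusted p 0.673 and 0.670), and PCK1, of gluconeogenesis, read 132, 76.5 and 102 in the reference and 45.3, 63.2 and 71.9 in IMZ383 (adjusted p = 0.189). No gene of 21 in the tricarboxylic acid cycle list was called, at a median of -0.29, with 4 at an unadjusted p under 0.05. Of 39 respiratory chain and ATP synthase genes likewise none was called, at a median of -0.18, with 9 at an unadjusted p under 0.05, and 1 was called lower without IMZ383 culture 3. DLD1, the mitochondrial D-lactate dehydrogenase, lay outside these lists, read 800.1, 575 and 482 in the reference and 257, 255 and 289.5 in IMZ383 and fell 2.27-fold (adjusted p = 0.00776). NDE1, the external NADH dehydrogenase used as a respiration marker, read 123, 178 and 156 in the reference and 73.4, 56 and 95.4 in IMZ383 (adjusted p = 0.0604). It had the largest fall of the 6 respiration markers, none of which was called. The log2 changes of the others were -0.90 for CYC1, -0.31 for CIT1, -0.29 for SDH2, -0.01 for ADH2 and 0.24 for COX5A. Summed over the 6, a sum that CIT1 and SDH2 dominate, they read 3111 to 3724 in the reference and 2427 to 2937 in IMZ383. These sums did not overlap. Among 23 glycolytic and fermentation genes ADH7 alone was called, from signals at or under the non-target controls in both strains, so no fold is given. That call ended when any 1 of the 6 arrays was left out (adjusted p 0.0770 to 0.129).

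Of 25 mating genes 2 fell and none rose. Among the 5 markers of the a mating type 1, the agglutinin subunit AGA2, was called lower. Their sum, most of it from the pheromone genes MFA1 and MFA2, was 7189 to 9334 in the reference and 3870 to 6805 in IMZ383. AGA2 read 298, 293 and 253 in the reference and 164, 144 and 175 in IMZ383 and fell 1.75-fold (adjusted p = 0.0142), a call that ended without reference culture 2 (adjusted p = 0.0569). MFA1 read 2757, 4109.9 and 2994 in the reference and 838, 1607 and 1994 in IMZ383 (adjusted p = 0.112). The 4 markers of the other mating type summed to 131 to 166 in the reference and 99.4 to 114 in IMZ383. FUS3, the kinase of the mating pathway, fell 1.99-fold (adjusted p = 0.0423) and lost its call in 5 of the 6 fits without 1 array (adjusted p up to 0.141). The median log2 change of the mating list was -0.30.

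Protein acetylation and growth genes gave almost no calls. Among 32 genes of histone acetyltransferases, deacetylases and silencing, EPL1, a subunit of the NuA4 acetyltransferase, read 14.8, 12.8 and 9.3 in the reference and 37.2, 39.9 and 28.3 in IMZ383 and rose 2.88-fold (adjusted p = 0.0106). The remaining 31 were not called, although without reference culture 1 the list held 2 rises; 26 of the 32 changes were above 0 and the median was 0.27, 0.15 after median centring. None of 38 ribosome biogenesis genes (1 at an unadjusted p under 0.05, median 0.11, or -0.01 after median centring) and none of 54 ribosomal protein genes (2 at an unadjusted p under 0.05, median -0.07) was called. None of 10 anaerobic wall mannoproteins was called either, with TIR2 the nearest at 894, 607 and 687 in the reference and 366, 376 and 454 in IMZ383 (adjusted p = 0.0629). Of the 54 gene lists with a measured member, 13 held no called gene.

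Several of the largest changes lay outside the lists. ROG3, an arrestin-like adaptor gene, read 0.5, 1.9 and 0.7 in the reference and 7.7, 9.6 and 7.7 in IMZ383 and rose at least 1.59-fold (adjusted p = 0.00115). NCA3, of the SUN family of wall-related proteins, read 50, 49.9 and 53.1 in the reference and 283, 170.4 and 356 in IMZ383 and rose 5.06-fold (adjusted p = 0.00156). RGI2, a gene of energy metabolism, read 412, 154 and 132 in the reference and 54.5, 52 and 76.2 in IMZ383, where reference culture 1 stood well above the others, and fell 3.38-fold (adjusted p = 0.0499). Its call ended in 4 of the 6 fits without 1 array (adjusted p up to 0.137). CDA2, a chitin deacetylase normally made in sporulation, read 9.8, 16.7 and 12 in the reference and 1.9, 0.6 and 3.6 in IMZ383 on 1 of its 3 probe sets and fell at least 2.77-fold (adjusted p = 0.0439), a call that ended in 5 of the 6 fits without 1 array (adjusted p up to 0.132). Its brightest probe set was not called (adjusted p = 0.451). YDL114W, of unknown function, read 8.9, 13.3 and 2.7 in the reference and 1.3, 1.6 and 1.4 in IMZ383 and was called lower with signals under the limit in both strains; that call ended in 5 of the 6 fits without 1 array (adjusted p up to 0.110). YLL066W-B, of unknown function, read 124, 121 and 88.1 in the reference and 48.4, 47.4 and 34.7 in IMZ383 on 1 of its 2 probe sets and fell 2.55-fold (adjusted p = 0.0159), a call that ended without IMZ383 culture 3 or reference culture 2 (adjusted p up to 0.0616). The other, brighter probe set was not called (adjusted p = 1.00). Of the called probe sets 190 matched 1 gene, 3 several genes and 19 none in the annotation. Among those without a gene, one read 21.2, 24.5 and 23.9 in the reference and 129, 115 and 149 in IMZ383 (adjusted p = 2.10e-05). In 11 called probe sets at least 1 array of each group lay under the non-target controls, and these differences are not given as folds.

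Probe sets of 1 gene did not always move together. Of 22 genes with several probe sets and at least 1 call, all probe sets had the same sign in 10, and in none were all called. The second probe set of ALD6, for example, read at most 2.7 on any of the 6 arrays and was not called. For 11 of the 22 genes the call came from a probe set other than the brightest one.

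The arrays drifted along the order of the probe sets. Within each strain the median log2 deviation of an array from its group mean changed smoothly with the probe set number, which runs by chromosome. In IMZ383 culture 2 it went from 0.15 in the bin that starts at number 6000 to -0.27 in the bin at 11000, and in IMZ383 culture 3 from -0.14 at 3500 to 0.21 at 11000. Over all 6 arrays the range of these bin medians was 0.12 to 0.42. Medians per chromosome differed between cultures as well: against the reference mean, chromosome I lay at -0.38 in IMZ383 culture 2 and at 0.17 in culture 3, and chromosome XI at -0.14 and 0.28. The cause was not tested, and where a probe set lies on the array is not given in the sources used here. After trend removal 97 probe sets were higher and 70 lower.

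**Figure D5:**
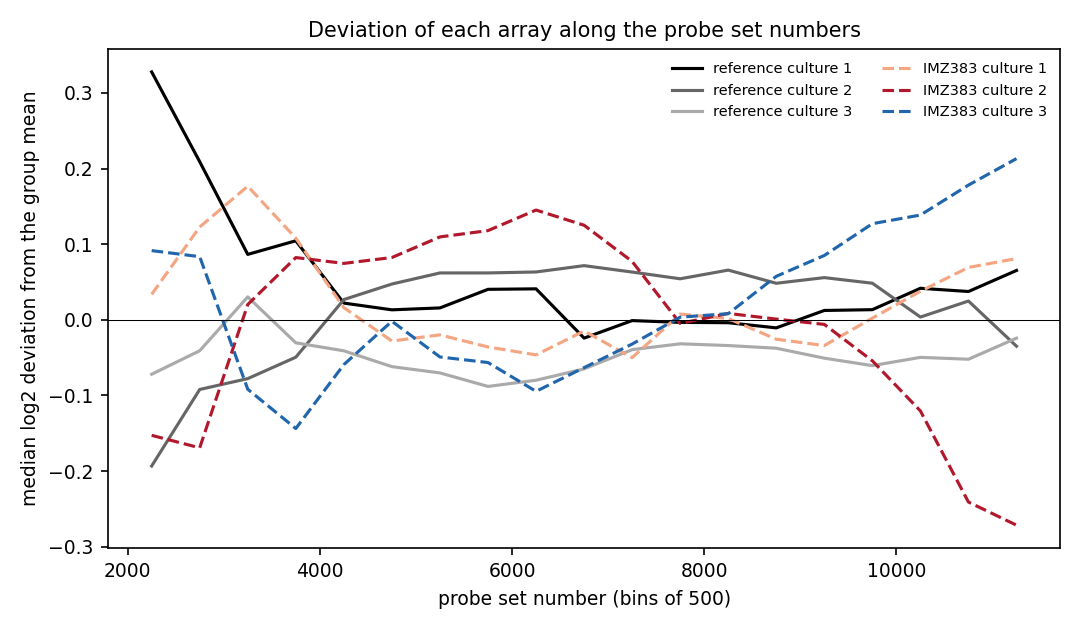
Median log2 deviation of each anaerobic array from the mean of its strain, in bins of 500 probe set numbers, solid lines for the 3 reference and dashed lines for the 3 IMZ383 cultures. IMZ383 cultures 2 and 3 drift apart towards the highest numbers, to -0.27 and 0.21.

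Chromosomes differed little on average. Averaged over the cultures, the median change of detected genes was -0.06 on chromosome I, which holds ACS1, 0.10 on chromosome XII, which holds ACS2, and highest on chromosome XIV at 0.18. The 5 detected genes of the mitochondrial genome had medians of -0.52, -0.29 and -0.43 in IMZ383 cultures 1, 2 and 3, and none was called. How well the 3' labelling reads mitochondrial transcripts was not tested. COX1, the largest cytochrome oxidase subunit, read 2367, 1621 and 1979 in the reference and 1368, 681 and 1114 in IMZ383 (adjusted p = 0.127), and OLI1, a ring subunit of the ATP synthase, 2646, 2852 and 2742 in the reference and 2205, 2164 and 2032 in IMZ383 (adjusted p = 0.117).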

How the data were processed

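Total RNA from 12 chemostat cultures, 200 ng each, was labelled with a 3' in vitro transcription kit and hybridised to 1-colour Affymetrix yeast arrays, per the labels' protocols. The authors deposited linear signal intensities, 1 for each probe set. A mean trimmed by 2% at both ends came to 149.94 on every deposited array, so the arrays had been scaled to it; the software is not given in the sources used here. Samples were grouped by their titles. Signals were floored at 1.1, the 10th percentile, and log2-transformed. A limma model (limma 3.58.1, R 4.3.3) with 1 mean per group was fitted to all 12 arrays, and p-values were adjusted by Benjamini-Hochberg over 9275 yeast probe sets, after 60 control probe sets were left out. The number of arrays limits the precision. On simulated data with known changes the model found 46% of log2 changes of 1 and 92% of those of 2, and 9 of 131 calls were false. The changed probe sets were drawn only from those with a mean signal above 6.9, the 25th percentile of all values. No detection rate was measured for dimmer ones. The simulation drew independent noise for each probe set, without the shared drift or scaling differences of these arrays. Its rates therefore need not hold for the real data. Gene names came from the platform annotation: 6504 probe sets had 1 gene, 328 several and 2443 none. Where a gene had several probe sets, the brightest stood for it in lists, unless another is named. A list is described by its counts and its median, and has no test.

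The members and gene lists were chosen with earlier results of these data known. Named genes were those of the replaced loci, markers and aldehyde dehydrogenases, the 20 largest called rises and falls, list members, and 3 neighbours on each side of ACS1 and ACS2. COX1, DLD1, FET3, LAC1, NCE102, OLI1 and the probe sets without a gene were chosen after their values were seen. Other scalings, floors, filters, priors, weights, thresholds, a replicate block, fits with 6 arrays and fits without 1 array were tried. Sequences and the bacterial genes were not analysed here.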

Additional observations from a re-analysis of the deposited data

How the results depend on the processing

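Among the alternatives the counts of higher and lower probe sets, 157 and 55 as reported, moved most with the arrays, the weights and the threshold. With the 6 anaerobic arrays alone 55 were higher and 19 lower, and with array weights 276 and 117. At an adjusted p under 0.005 there were 39 and 11, and with a change of 2-fold also required 88 and 40. Centring on the median gave 87 and 73, quantile normalization 113 and 74, and removal of the trend along probe set numbers, chosen after seeing the data, 97 and 70. Without a floor there were 117 and 41. The remaining planned settings gave 168 to 178 higher and 55 to 79 lower. With each of the 6 arrays left out the higher count ranged from 93 to 158 and the lower from 36 to 62. The cause of these moves was not tested. The replicate number as a block gave 114 higher and 39 lower, but same-numbered cultures of the strains did not deviate together (correlations of 0.04, 0.02 and 0.02), so the numbers were not taken as pairs. Changes near 0 turned sign in uncalled genes: MIS1 was -0.00254 after median centring and the control ACT1 0.0220 after quantile normalization. Beside the replaced loci, OAF1 was 0.14 and RDN37-1 -0.0849 with array weights, and AIM2 0.0268 and FLC2 0.0132 with the trend removed. With 1 array left out the log2 changes ranged from -0.26 to 0.24 for AIM2, -0.63 to 0.0626 for CNE1, -0.19 to 0.13 for FLC2, -0.0143 to 0.58 for GPB2, -0.29 to 0.26 for OAF1, -0.25 to 0.00233 for PCD1, -0.81 to 0.0670 for PEX22 and -0.44 to 1.44 for RDN37-1. The brighter probe set of YLL066W-B ranged from -0.14 to 0.0746 and was 0.0176 with array weights. Signals near the non-target controls give only bounds, and 3 cultures of 1 strain show nothing about a second isolate.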

Other observations

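Several further list members were called singly. CAR1, the arginase gene, was the one call among 13 arginine and urea cycle genes, with 116, 135 and 147 in the reference and 223, 210.1 and 204 in IMZ383 (adjusted p = 0.0160), and lost its call without IMZ383 culture 1 (adjusted p = 0.0614) and also after median centring or trend removal. ZRT3, a vacuolar zinc exporter gene, was the one call among 11 zinc genes, with 191, 186 and 196 in the reference and 280.1, 269.5 and 334 in IMZ383 (adjusted p = 0.0168), and lost its call without reference culture 2 or 3 (adjusted p up to 0.0635) and also after median centring or trend removal. ATG1, the kinase that starts autophagy, was the one call among 20 vacuolar and autophagy genes, with 26.4, 26 and 22.1 in the reference and 42.4, 53.1 and 37.8 in IMZ383 (adjusted p = 0.0445), and lost its call when any 1 of the 6 arrays was left out (adjusted p 0.0535 to 0.149) and also after quantile normalization or median centring. GCY1, a glycerol dehydrogenase gene, was the one call among 13 glycerol genes, with 85.6, 117 and 127 in the reference and 243, 261 and 272 in IMZ383 (adjusted p = 0.0181), and lost its call without IMZ383 culture 1 or 2 or 3 (adjusted p up to 0.0624) and also after quantile normalization. ALP1, an arginine transporter gene, was the one call among 21 amino acid permease genes, with 10.7, 14.9 and 15.2 in the reference and 6.6, 6.3 and 6.3 in IMZ383 (adjusted p = 0.00525). None of 14 thiamine and pyridoxine, 15 NAD, 10 lysine and 8 heme genes was called, with 6, 4, 0 and 0 at an unadjusted p under 0.05. Without reference culture 1, 2 thiamine and pyridoxine genes were called lower and 2 glycerol genes higher, and without IMZ383 culture 3 there were 2 amino acid permease genes called lower.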
